A study of Mus musculus with 4 samples.

Results

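Megakaryocyte-primed cells were picked out of 4 droplet single-cell RNA libraries of mouse bone marrow by 3 surface genes of the platelet lineage. The libraries were made from LSK cells (lineage-negative, Sca-1+, Kit+), a sort in which stem cells and their first descendants are found. A barcode counted as a cell when it had 500 to 7500 genes and under 10% mitochondrial unique molecular identifiers (UMIs, each standing for 1 captured RNA molecule). A cell entered the gate when it had at least 1 UMI of at least 2 of Gp5, Gp9 and Itga2b, fewer than 3 of the erythroid gene Car1, fewer than 5 of the granule protease gene Elane, and 0 of the B-cell gene Cd79a. The gate held 3357 of 37344 cells, or 8.99%.

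Each genotype gave 1 library, pooled from the marrow of 5 mice aged 8 to 12 weeks. All 4 genotypes carried Vav1-iCre, a Cre recombinase expressed in blood-forming cells, and the control carried it alone. The Ikk2-CA library carried in addition 1 floxed-stop allele of constitutively active Ikk2 (R26StopFLikk2ca, with S177E and S181E) at the Rosa26 locus. The Jak2 V617F library carried 1 conditional Jak2 V617F allele, and the double mutant carried both. The design text also names an NF-κB-responsive EGFP reporter in the cross. With 1 pool per genotype the spread between mice was not measured, no test between genotypes was made and no p-value is given. Intervals are exact 95% intervals that cover counting error only.

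Megakaryocytes grow from stem and progenitor cells under cytokines that signal through the kinase Jak2, and they shed platelets. GP5 and GP9 sit with GP1BA and GP1BB in the platelet receptor for von Willebrand factor, and ITGA2B pairs with ITGB3 as the fibrinogen receptor. PF4 is a chemokine stored in platelet alpha granules, and APOE is a lipid-carrying protein. IKK2 phosphorylates the inhibitor IκBα, which is then degraded, and NF-κB enters the nucleus. JAK2 V617F is the activated kinase of human myeloproliferative neoplasms.

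The genes on which the gate and the main comparison turn lie on different chromosomes of GRCm38 (mm10), and all are protein-coding. Gp5 is at chr16:30307685-30310779 (minus strand), Gp9 at chr6:87778072-87779768 (plus), Itga2b at chr11:102453297-102470122 (minus), Pf4 at chr5:90772435-90773383 (plus) and Apoe at chr7:19696109-19699188 (minus). RefSeq promoter sequences (GRCm38.p6, 250 bases before to 50 after the start) are shown for the gate gene Itga2b and for Pf4 and Apoe, whose levels are compared below. Capitals mark GATAA, the core bound by GATA factors, and AGGAAG, a core bound by ETS factors, on either strand. The 3 windows are chr11:102469834-102470133 (minus), chr5:90772185-90772484 (plus) and chr7:19699139-19699438 (minus, the most upstream of 3 Apoe starts in the table).
Itga2b: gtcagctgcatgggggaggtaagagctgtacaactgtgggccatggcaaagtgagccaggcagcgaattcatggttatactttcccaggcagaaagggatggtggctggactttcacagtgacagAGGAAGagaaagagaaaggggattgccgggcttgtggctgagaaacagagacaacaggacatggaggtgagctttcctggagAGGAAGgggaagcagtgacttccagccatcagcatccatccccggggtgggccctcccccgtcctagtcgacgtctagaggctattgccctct
Pf4: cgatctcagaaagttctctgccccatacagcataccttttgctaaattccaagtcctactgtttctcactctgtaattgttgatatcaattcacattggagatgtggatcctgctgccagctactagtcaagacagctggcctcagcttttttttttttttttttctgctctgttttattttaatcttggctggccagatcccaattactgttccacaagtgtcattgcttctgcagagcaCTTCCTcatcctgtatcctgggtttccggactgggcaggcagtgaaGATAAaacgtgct
Apoe: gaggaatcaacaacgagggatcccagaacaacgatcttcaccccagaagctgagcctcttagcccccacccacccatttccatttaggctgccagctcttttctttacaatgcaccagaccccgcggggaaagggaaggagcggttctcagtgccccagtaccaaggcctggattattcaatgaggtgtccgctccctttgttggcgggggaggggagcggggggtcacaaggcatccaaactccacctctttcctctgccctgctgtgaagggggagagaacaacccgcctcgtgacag
Itga2b had 2 AGGAAG and 0 GATAA, Pf4 had 1 of each, and Apoe had 0 of both. Gp9 had 1 of each, and Gp5 had 1 AGGAAG and 2 GATAA. Of 32851 RefSeq promoter windows, 25.4% held GATAA and 35.4% held AGGAAG. The NF-κB consensus motif, searched on both strands and held by 0.411% of windows, was in none of these 5. No matches overlapped. A match is a description of the letters in the window, and a missing match says nothing about binding.

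The gate held 566 control, 800 Ikk2-CA, 1208 Jak2 V617F and 783 double-mutant cells, and values given as a series of 4 below keep this library order. These were 7.03% (6.48 to 7.61), 8.11% (7.58 to 8.67), 8.53% (8.08 to 9.01) and 14.9% (13.9 to 15.9) of the kept cells. The double mutant was also the deepest library. The gated cells had a median of 14636, 19392.5, 15319.5 and 29393 UMIs, and the rest 10353, 17544, 10680.5 and 23951. When every cell was thinned at random to 5000 UMIs before the gate was applied, the gate held 203 of 7217 control, 266 of 9460 Ikk2-CA, 379 of 12795 Jak2 V617F and 140 of 5122 double-mutant cells. Those shares were 2.81% (2.44 to 3.22), 2.81% (2.49 to 3.17), 2.96% (2.68 to 3.27) and 2.73% (2.30 to 3.22), and all 4 intervals overlapped. The larger share of the double mutant was thus not detectable at equal depth. Cells under 5000 UMIs were left out of the thinned shares (838, 405, 1361 and 146 in library order).

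**Figure D1:**
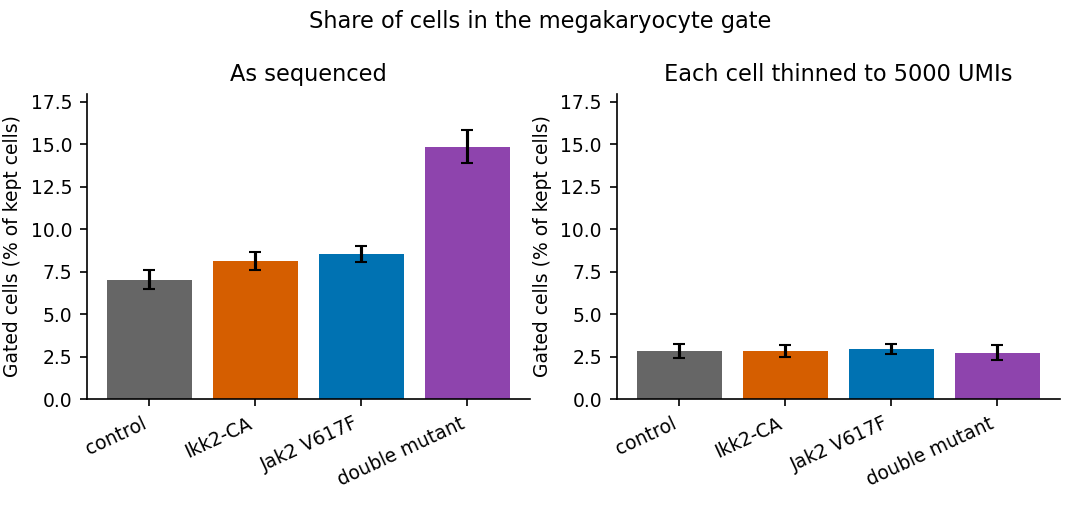
Gated cells as a percentage of kept cells in each library, as sequenced (left) and after each cell was thinned to 5000 UMIs (right). Bars are the share in 1 library and error bars its exact binomial 95% interval; the double mutant stands at 14.9% on the left, and all 4 libraries lie between 2.73% and 2.96% on the right.

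Many gated cells sat close to the threshold. All 3 markers were seen in 30.2% of control, 40.0% of Ikk2-CA, 23.8% of Jak2 V617F and 41.4% of double-mutant gated cells. Exactly 2 marker UMIs, the least the gate allows, were present in 29.2%, 19.3%, 32.2% and 19.8%. Just outside, 1726, 1743, 3203 and 1456 cells had 1 marker, and the limits on Car1, Elane and Cd79a removed 46, 155, 54 and 26 cells that had enough markers. Within the gate Gp5 stood at 73.4, 78.3, 55.3 and 50.8 CPM (UMIs of the gene per 1000000 UMIs of the library's gated cells together), Gp9 at 67.9, 65.9, 58.4 and 44.0 CPM, and Itga2b at 186, 152, 129 and 103 CPM. Those levels follow from the gate and are descriptions. The gate's levels rest on 9062917, 17300109, 20671227 and 24387354 UMIs.

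The genes that led the gate outside the rule were listed by their lowest ratio to the other cells over the 4 libraries. That choice makes the 15 leading genes higher in every library, so their ratios are a description. Cavin2, a caveola-associated protein, was 17.2 to 38.6 times the level of the rest. Pf4 was 12.8 to 47.3 times, and the tubulin gene Tuba8 7.41 to 14.2 times. Gata1, the master factor of megakaryocytes and red cells, was 5.26 to 11.4 times. Further leading genes were F2r, the thrombin receptor PAR1, at 4.19 to 7.15 times, the Gata1 cofactor Zfpm1 at 2.83 to 4.62 times, the repressor Gfi1b at 2.65 to 3.79 times, the small GTPase gene Rap1b at 2.63 to 4.42 times, and Apoe at 3.52 to 5.62 times. Of 19 listed receptor genes 9 reached 20 CPM in the control gate, and of 14 granule genes 8. Others of the lineage were near 0. Tubb1, the platelet tubulin, had at most 0.231 CPM in any library, Gp6, the collagen receptor, at most 0.289 CPM, and P2ry12, the ADP receptor, at most 0.194 CPM.

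Stem cell expression was also present. Hlf, a transcription factor of stem cells, was at 152, 40.9, 128 and 54.0 CPM inside the gate and at 227, 43.6, 207 and 78.8 CPM outside it, in library order. Gata1 had a UMI in 33.6%, 56.8%, 38.1% and 46.9% of gated cells, against 0.524%, 1.10%, 0% and 0% of early B cells, a type that should lack it. The median early B cell had 10131, 14716, 8552 and 24341 UMIs. Thinned to 5000 UMIs, the share of gated cells with Gata1 was 17.3%, 23.0%, 16.8% and 14.6%. The gated cells are therefore called by their gate below, since the data show an early and mixed population.

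Genes of other lineages were present at varied levels. The 16 granulocyte and monocyte genes summed to 799, 633, 711 and 665 CPM inside the gate and to 3762, 3014, 2715 and 2917 CPM outside, and all 16 had UMIs in every library. Of these Prtn3, a granule protease, was at 301, 170, 346 and 215 CPM in the gate. Mpo, the myeloperoxidase gene, was at 104, 109, 55.6 and 95.4 CPM, with UMIs in 37.1%, 41.1%, 27.6% and 44.8% of gated cells. The 22 erythroid genes summed to 1059, 983, 889 and 1006 CPM inside and to 990, 1589, 858 and 704 CPM outside. The 7 neutrophil genes summed to 10.1 to 38.7 CPM inside it and to 737 to 1359 CPM outside, and all 7 had UMIs in every library. The 9 B-cell genes summed to 31.5 to 51.9 CPM inside, of which Cd79b alone gave 27.9 to 33.9 CPM, with Cd79a at 0 by rule. The 4 eosinophil genes summed to 1.77, 127, 0.581 and 1.11 CPM, and the 13 mast cell and basophil genes to 64.4, 112, 39.0 and 92.1 CPM, most of it Cpa3. The eosinophil value of the Ikk2-CA library came from 1 cell. That cell held 1989 of the 2038 UMIs of Prg2, the granule major basic protein, or 97.6%. With it Prg2 stood at 118 CPM and without it at 2.84 CPM, against 1.66 CPM in control. The Prg2 ratio, the highest of all candidates over control, is therefore not used below. In the double mutant 1 gated cell likewise held 53 of 61 UMIs of the mast cell chymase gene Cma1. The limits do not remove such cells, and their part in the other results was not tested.

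The 4 pools differed in sex. Xist, transcribed from the inactive X of females, was at 1234, 264, 0.387 and 234 CPM in the gate, and Ddx3y, on the Y, at 24.3, 28.4, 45.5 and 28.0 CPM, in library order. Shared barcodes were few, with 1 gated barcode in common between Ikk2-CA and Jak2 V617F, 1 between Jak2 V617F and the double mutant, and 0 between the other pairs. The median share of mitochondrial UMIs was 4.09%, 3.31%, 4.48% and 3.39% in gated cells. Comparisons with control share the control library, so their values are given side by side.

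Pf4 separated the libraries that carried Ikk2-CA from those that did not. Its level in the gate was 921 CPM in control, 3529 CPM in Ikk2-CA, 538 CPM in Jak2 V617F and 2154 CPM in the double mutant. Both libraries with Ikk2-CA were above both without it, and both with Jak2 V617F were below their partner without it. Pf4 in Ikk2-CA was 3.83 times control (3.74 to 3.92), a log2 ratio of 1.94, and in Jak2 V617F it was 0.584 of control (0.568 to 0.601). The double mutant had 2.34 times control (2.28 to 2.39), 0.610 of Ikk2-CA (0.603 to 0.617) and 4.00 times Jak2 V617F (3.92 to 4.08). Ikk2-CA thus went with a log2 difference of 1.94 without Jak2 V617F and of 2.0007 with it, and Jak2 V617F with -0.78 without Ikk2-CA and -0.71 with it. The difference between backgrounds was 0.06 on the log2 scale and was not tested.

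Apoe differed less between the libraries. Its level was 932 CPM in control, 689 CPM in Ikk2-CA, 827 CPM in Jak2 V617F and 575 CPM in the double mutant. The highest and the lowest library differed by less than 2-fold, and the order of the libraries was not that of Pf4. Ikk2-CA stood below control for Apoe and above it for Pf4, while Jak2 V617F stood below control for both. Apoe in Ikk2-CA was 0.740 of control (0.719 to 0.761), in Jak2 V617F 0.888 (0.865 to 0.911) and in the double mutant 0.617 (0.600 to 0.634). The median gene was itself lower than in control, by -0.17 on the log2 scale in Ikk2-CA, -0.03 in Jak2 V617F and -0.20 in the double mutant. Relative to it the Apoe log2 ratios of -0.44, -0.17 and -0.70 are smaller. The Jak2 V617F value turned to 0.12 when cells were thinned before the gate.

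Within each library, the gate held 0.988 Pf4 UMIs per Apoe UMI in control, 5.12 in Ikk2-CA, 0.650 in Jak2 V617F and 3.75 in the double mutant. Both genes are counted in the same cells here, so these ratios do not depend on how a library is scaled. They compare a gene pair across libraries and say nothing of which transcript is more abundant, since UMIs of different genes are not captured alike.

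**Figure D2:**
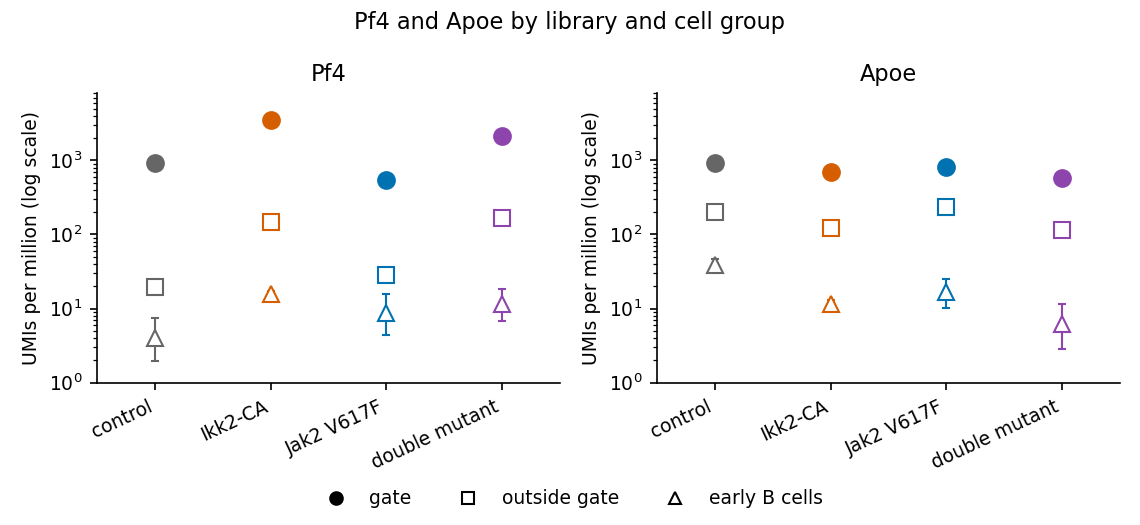
Pf4 (left) and Apoe (right) in UMIs per 1000000 (CPM) on a log scale, for gated cells (filled circles), kept cells outside the gate (open squares) and early B cells (open triangles) of each library. Error bars are exact Poisson 95% intervals, narrower than the symbol where not seen; gated Pf4 runs from 538 to 3529 CPM and gated Apoe from 575 to 932 CPM.

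The difference was also present below the gate's threshold. Outside the gate Pf4 was at 19.5, 149, 28.5 and 169 CPM, and Apoe at 199, 123, 235 and 116 CPM, in library order. Among cells with 1 marker Pf4 was at 38.5, 383, 59.6 and 277 CPM, and among cells with 0 markers at 16.7, 82.8, 16.9 and 118 CPM. Early B cells, which should make neither, held 4.06, 15.5, 8.72 and 11.6 CPM of Pf4, an estimate of free RNA. Subtracting that level left the Pf4 log2 ratio of Ikk2-CA over control at 1.94. So Pf4 was higher with Ikk2-CA in cells with 0, 1, 2 or 3 markers.

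The number of markers mattered for the size of the difference. Gated cells with exactly 2 markers had 323, 2017, 325 and 1223 CPM of Pf4. Those with all 3 had 2112, 5367, 1110 and 3287 CPM. Control and Jak2 V617F were thus close among cells with 2 markers, and Jak2 V617F was below control among cells with 3. In 3-marker cells the log2 ratio of Ikk2-CA over control was 1.35 and that of the double mutant 0.64, against 1.94 and 1.23 in the whole gate. Among gated cells with a Gata1 UMI, an added comparison, Pf4 was at 1717, 4227, 728 and 2956 CPM, and the log2 ratio of Ikk2-CA over control was 1.30.

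The libraries differed most in how Pf4 was spread over cells. The median gated cell had 51.8 CPM of Pf4 in control, 1899 CPM in Ikk2-CA, 56.4 CPM in Jak2 V617F and 1312 CPM in the double mutant. At the 90th percentile the values were 1331, 7303, 1168 and 5100 CPM. As a ratio, the libraries with and without Ikk2-CA were thus further apart at the median than at the 90th percentile, and in CPM they were further apart at the 90th. The control median stands for about 1 UMI in a cell of median depth. The 10% of cells with most Pf4 UMIs held 87.5% of them in control and 81.5% in Jak2 V617F, against 49.0% in Ikk2-CA and 45.7% in the double mutant. For Apoe the top 10% held 31.1%, 30.2%, 27.7% and 29.5%, and the median cell had 701, 566, 720 and 441 CPM. Pf4 was concentrated in a minority of cells without Ikk2-CA and present across most of the gate with it, while Apoe was spread alike in all 4.

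Detection after thinning gave the same picture, in cells that had been gated at full and unequal depth. The thinned cells were therefore not chosen alike, and Gp5 had a UMI in 31.7%, 31.7%, 26.6% and 19.8% of them in library order. Among gated cells thinned to 5000 UMIs, Pf4 had a UMI in 37.1% (33.0 to 41.2) of control, 90.2% of Ikk2-CA, 39.0% of Jak2 V617F and 82.9% of double-mutant cells. Unthinned, the shares were 54.1%, 96.6%, 57.7% and 93.9%. Thinned early B cells gave 3.33%, 4.91%, 7.35% and 7.55%. Apoe had a UMI in 80.4%, 77.1%, 84.7% and 74.4% of thinned gated cells, and in 12.7%, 3.46%, 5.88% and 3.77% of thinned early B cells. Cells with Apoe and no Pf4 made up 47.3% of the control gate, 3.89% of Ikk2-CA, 49.9% of Jak2 V617F and 9.34% of the double mutant. Cells with Pf4 and no Apoe were 3.96%, 17.0%, 4.27% and 17.8%. More Pf4 than Apoe UMIs were counted in 14.2%, 68.7%, 15.2% and 64.6% of cells. Within a library the 2 genes were ranked almost independently over cells, with a Spearman rho between -0.04 and 0.20, which in such sparse counts is no finding. The thinned cells numbered 556, 796, 1194 and 782.

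**Figure D3:**
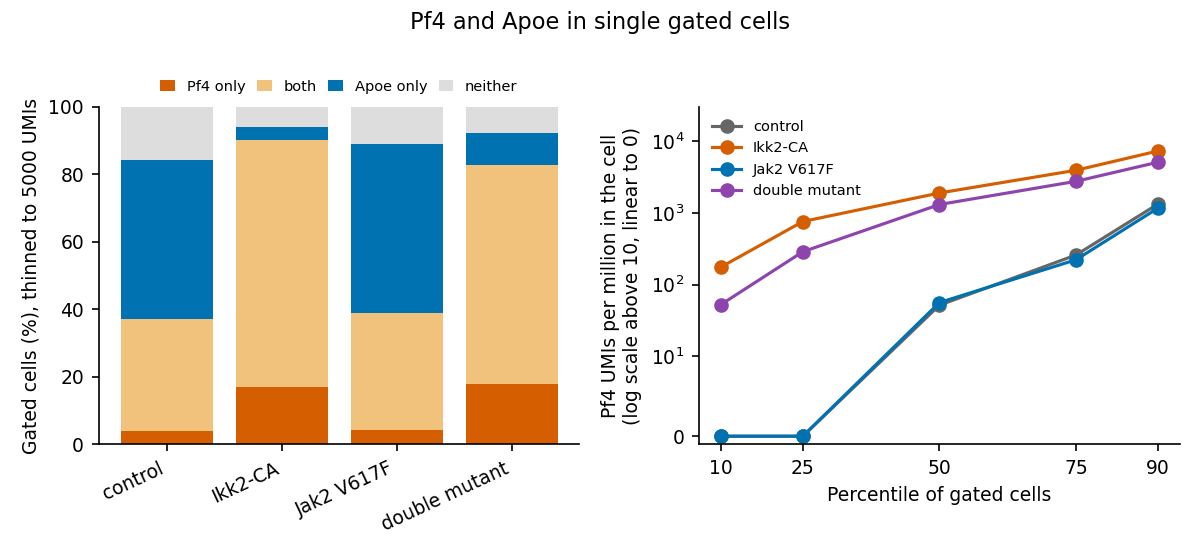
Left: gated cells of each library thinned to 5000 UMIs, as percentages with a UMI of Pf4 only, of both genes, of Apoe only or of neither. Right: Pf4 UMIs per 1000000 (CPM) in the gated cell at the 10th, 25th, 50th, 75th and 90th percentile; the curves of Ikk2-CA and the double mutant lie above those of control and Jak2 V617F at every percentile, with medians of 1899 and 1312 against 51.8 and 56.4.

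Most other megakaryocyte genes did not follow Pf4. A gene was compared when it had at least 20 CPM in either gated sum, and called when it was at least 2 times, or at most 0.5 times, as high. Over all genes of Ikk2-CA against control, 89 of 6204 (1.43%) were called higher and 69 (1.11%) lower, together 2.55%. Of 10 measured receptor genes on the megakaryocyte list 1 was called higher and 0 lower. The one called, Itgb3, passed the minimum only in Ikk2-CA, where it was high, and 0 of the 9 that passed in control were called. Of 8 measured granule genes 1 was called higher, Pf4 itself. All 13 transcription factor genes and all 17 measured cytoskeletal and signalling genes stayed within 2-fold. The list medians were 0.10, 0.11, -0.11 and -0.10 on the log2 scale, against -0.17 for all genes. The receptor median was -0.21 over the genes measured in cells with all 3 markers, and the transcription factor median was 0.12 with TMM scaling, so neither kept its sign. With TMM scaling the split over all genes was 137 higher and 30 lower, because that scaling adds 0.23 to each log2 ratio. That addition takes the receptor gene Treml1, at 0.88 and above the minimum in control, past 2-fold.

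Among receptors, Itgb3, the partner chain of the gate gene Itga2b, stood at 11.3 CPM in control, 27.3 CPM in Ikk2-CA, 16.2 CPM in Jak2 V617F and 19.6 CPM in the double mutant. All 3 mutants were above control, and Ikk2-CA was highest at 2.43 times (1.96 to 3.04), although 3-marker cells gave a log2 ratio of 0.73 in place of 1.28. Treml1, a receptor of alpha granules, stood at 27.1, 49.9997, 13.7 and 19.8 CPM, so that Ikk2-CA was highest and Jak2 V617F lowest. Gp1bb, a partner of GP9, was at 35.2, 39.0, 18.5 and 30.3 CPM and was lowest in Jak2 V617F, where its ratio to control was 0.525 (0.451 to 0.611).

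Selp, the platelet adhesion receptor P-selectin, was at 16.7, 7.11, 31.1 and 15.7 CPM, highest in Jak2 V617F and lowest in Ikk2-CA. Cd9, a membrane tetraspanin, differed little, at 242, 272, 208 and 206 CPM.

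Measured granule genes other than Pf4 stayed within 2-fold of control in Ikk2-CA and Jak2 V617F. With Pf4 counted, 5 of 8 were above control in Ikk2-CA, 2 in Jak2 V617F and 2 in the double mutant. Over all genes 1825 of 6204, 2769 of 6229 and 1901 of 6165 were above control in these comparisons. Cavin2 was at 66.9, 79.3, 55.1 and 43.6 CPM. Vwf, the von Willebrand factor gene, was at 27.03, 31.0, 30.7 and 21.8 CPM and Tgfb1, a growth factor carried in the same granules, at 289, 357, 316 and 365 CPM. Mmrn1, which encodes the factor V-binding protein multimerin 1, was at 35.6, 20.6, 24.5 and 13.3 CPM. It was lowest in the double mutant, at 0.373 of control (0.319 to 0.436). Ppbp, another platelet chemokine gene, was near the floor of detection at 3.31, 3.47, 2.32 and 2.50 CPM.

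**Figure D4:**
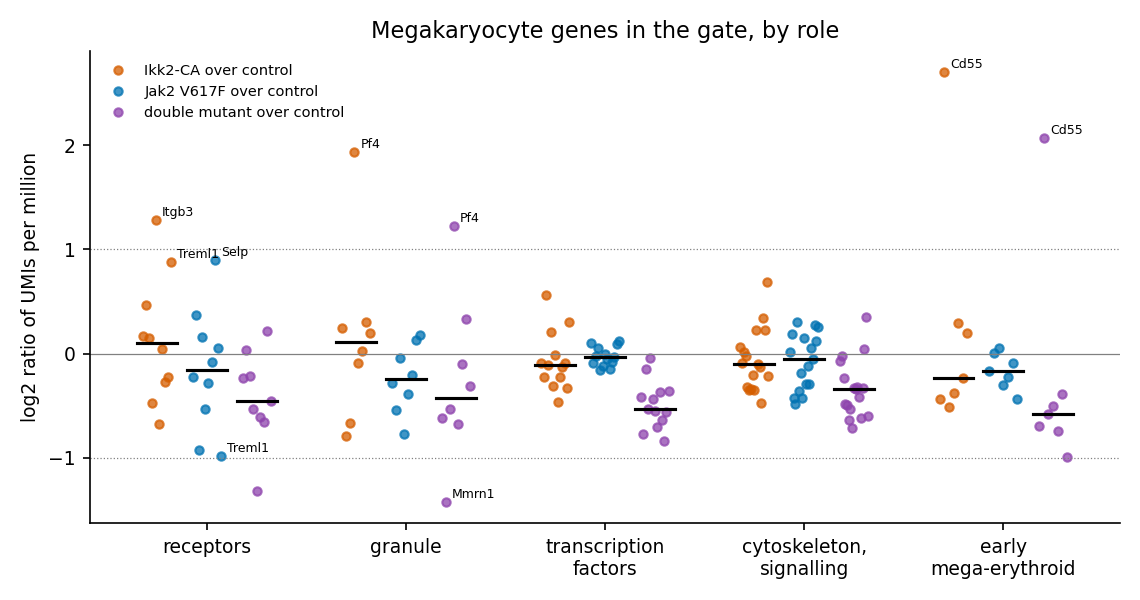
Log2 ratio of each mutant's gated CPM to control for megakaryocyte genes of 20 CPM or more in 1 or both libraries compared, grouped by role. Points are genes, black bars the median of each group, and dotted lines mark 2-fold; Pf4 (1.94 and 1.23), Cd55 (2.70 and 2.07) and Itgb3 (1.28) are the points above the upper line.

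In the double mutant the transcription factors stood lower as a group. Against control, 53 of 6165 genes (0.86%) were called higher and 85 (1.38%) lower, together 2.24%, or 112 and 17 with TMM scaling, which adds 0.28. None of the 13 transcription factor genes passed 2-fold, but all 13 were below control as scaled by total UMIs, with a median of -0.53 against -0.20 for all genes. Most genes were below control in this comparison, with 1901 of 6165 above it. Gata1 and Gfi1b, the latter at 47.0 CPM in control and 45.6 CPM in the double mutant, would stand above control with the TMM addition. The median was between -0.62 and -0.22 over the alternatives. Runx1, a factor of stem cells and megakaryocytes, was at 129, 121, 126 and 71.9 CPM, with the double mutant alone below 100 CPM. Fli1, an ETS factor of the lineage, was at 137, 117, 129 and 80.1 CPM, and Meis1 at 251, 183, 243 and 155 CPM. Gata1 was at 36.6, 54.1, 36.0 and 33.1 CPM, highest in Ikk2-CA. Of 9 receptor genes, whose median of -0.46 was -0.18 over the same genes with TMM scaling, 0 were called higher, and of 8 granule genes Pf4 was called higher and Mmrn1 lower. Of 17 cytoskeletal and signalling genes 0 were called.

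In Jak2 V617F fewer genes differed from control, with 20 of 6229 (0.321%) called higher and 12 (0.193%) lower, together 0.514%. No receptor, granule, transcription factor or cytoskeletal gene of the megakaryocyte lists was among them. The 4 list medians were -0.15, -0.24, -0.03 and -0.05, against -0.03 for all genes. Of 11 measured JAK-STAT genes 2 were called higher, both feedback inhibitors. Both passed the 20 CPM minimum only in Jak2 V617F, and 0 of the 9 that passed in control were called, so the count rests on the filter. Socs2 was at 8.94 CPM in control, 9.02 CPM in Ikk2-CA, 27.2 CPM in Jak2 V617F and 37.8 CPM in the double mutant, so both libraries with Jak2 V617F were above both without. Cish was at 10.8, 9.19, 22.4 and 11.9 CPM and stood apart in Jak2 V617F alone.

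Cd55, which encodes a complement regulator, was the gene of the early megakaryocyte and erythroid list that followed Pf4. It was at 20.6 CPM in control, 134 CPM in Ikk2-CA, 20.8 CPM in Jak2 V617F and 86.8 CPM in the double mutant. Both libraries with Ikk2-CA were high and both without were equal within counting error. The ratio to control was 6.51 (5.61 to 7.597) in Ikk2-CA and 4.21 (3.62 to 4.91) in the double mutant. It was 1 of 7 measured genes of its list called higher in either comparison, and 0 were called lower. Over all genes 1.43% and 0.86% were called higher. The other members included Slc14a1, a urea transporter gene, at 72.9, 83.4, 53.9 and 36.7 CPM, and Lmo2, a haematopoietic cofactor, at 658, 505, 533 and 463 CPM.

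Genes of cholesterol and lipoprotein handling, listed because APOE is a ligand of lipoprotein receptors, were lower or flat. Of 9 measured members 1 was called lower in Ikk2-CA, 0 in Jak2 V617F and 2 in the double mutant, and 0 were called higher. Over all genes 1.11%, 0.193% and 1.38% were called lower. All 9 passed the 20 CPM minimum in control. Of those called lower, 0 also passed it in Ikk2-CA and 1 in the double mutant, so the Ikk2-CA call rests on the filter. Vldlr, a receptor that binds APOE, was at 24.5 CPM in control, 6.36 CPM in Ikk2-CA, 17.9 CPM in Jak2 V617F and 6.72 CPM in the double mutant, low in both libraries with Ikk2-CA. Abcg1, a cholesterol exporter, was at 46.5, 34.9, 36.4 and 21.3 CPM. The median log2 ratio was -0.24, -0.45 and -0.67 in the 3 mutants over control, against -0.17, -0.03 and -0.20 for all genes. In Ikk2-CA the list was thus close to all genes.

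Some NF-κB pathway genes were higher in the gate with Ikk2-CA. Against control, 8 of 16 measured genes were called higher in Ikk2-CA, against 1.43% of all genes, and 5 of 14 in the double mutant, against 0.86%, with 0 called lower in either. In Jak2 V617F 0 of 10 were called. Members that passed the 20 CPM minimum only where they were high are part of these counts. Of the 8 that passed in control, 3 were called in Ikk2-CA and 2 in the double mutant. Nfkb1, a subunit gene, was at 97.1, 82.3, 108 and 86.9 CPM and the subunit gene Rela at 43.4, 37.9, 41.4 and 33.8 CPM, below control in both libraries with Ikk2-CA. The medians were 1.16, 0.78 and 0.06 in Ikk2-CA, the double mutant and Jak2 V617F, although that of the double mutant was -0.02 over the genes measured when cells were thinned before the gate. Nfkbia, which encodes IκBα and is itself induced by NF-κB, was at 70.6 CPM in control, 436 CPM in Ikk2-CA, 78.6 CPM in Jak2 V617F and 291 CPM in the double mutant. It had a UMI in 56.5%, 98.9%, 63.7% and 97.2% of gated cells. Relb, a subunit of the noncanonical pathway, was at 3.31, 38.6, 4.40 and 30.1 CPM, and Ltb, which encodes lymphotoxin beta, at 48.1, 277, 41.8 and 202 CPM. These 3 genes gave the same order of libraries as Cd55 at the top, Ikk2-CA and then the double mutant. Tnfaip3, the inhibitor A20, differed, at 5.63, 22.0, 5.42 and 7.34 CPM, near control in the double mutant.

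Immediate early genes, which respond within minutes to growth signals and to handling of cells, did not follow that order. Of 15 measured genes 14 were called higher in Ikk2-CA over control, with a median of 2.24, and of the 12 that passed the minimum in control 11 were. In Jak2 V617F 4 of 12 were called higher, with a median of 0.62, and in the double mutant 0 of 12 were called, with a median of -0.02. Over all genes 1.43%, 0.321% and 0.86% were called higher in Ikk2-CA, Jak2 V617F and the double mutant. Fos was at 42.5 CPM in control, 423 CPM in Ikk2-CA, 152 CPM in Jak2 V617F and 46.6 CPM in the double mutant. Each single mutant was above control and the double mutant was near control. Egr1 was at 27.3, 158, 86.5 and 29.6 CPM, and Jun at 249, 685, 288 and 176 CPM. Jointly the 19 listed genes summed to 894, 3153, 1372 and 786 CPM inside the gate and to 927, 2460, 1409 and 762 CPM outside it, so the order was the same in the other cells of each library. The part of tissue handling in these levels was not tested. The double-mutant median was 0.26 with TMM scaling.

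**Figure D5:**
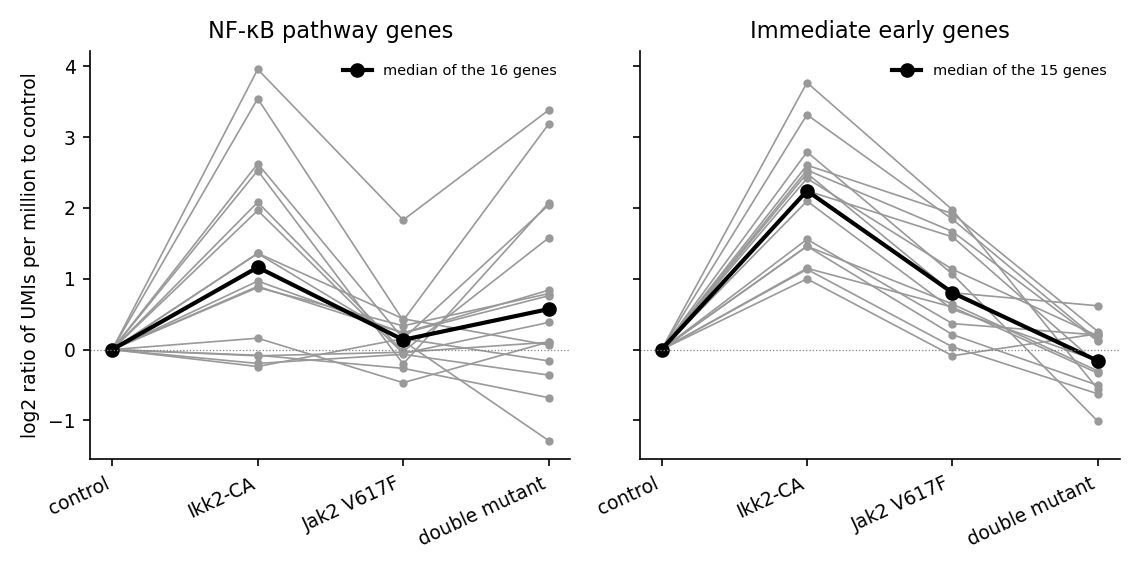
Log2 ratio of gated CPM to control for the 16 NF-κB pathway genes (left) and 15 immediate early genes (right) measured in Ikk2-CA against control. Grey lines join the values of 1 gene across the libraries and the black line joins the medians, which are 1.16, 0.14 and 0.57 on the left and 2.24, 0.80 and -0.16 on the right for Ikk2-CA, Jak2 V617F and the double mutant.

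The 2 comparisons between mutants reuse the same gated sums, so they follow from the values above and are no separate support. In the double mutant against Ikk2-CA, 8 of 5630 genes (0.142%) were called higher and 46 (0.817%) lower, together 0.959%. Of the 15 measured immediate early genes 14 were among those called lower, and of 16 NF-κB genes 3. All of these measured genes passed the 20 CPM minimum in Ikk2-CA. Of those called lower, 11 immediate early genes and 1 NF-κB gene also passed it in the double mutant. Socs2, which passed the minimum only in the double mutant, was 4.19 times as high (3.53 to 5.00). Myl10, which encodes a myosin light chain, was the candidate with the highest ratio, at 69.4 CPM in control, 11.4 CPM in Ikk2-CA, 42.1 CPM in Jak2 V617F and 58.7 CPM in the double mutant. In the double mutant against Jak2 V617F, 41 of 6076 genes (0.675%) were called higher and 35 (0.576%) lower, together 1.25%, or 57 and 11 with TMM scaling. The 6 highest candidates were Ltb, Cd55, Pf4, Nfkbia, Cd74 and Tnip3, and the 6 lowest Fosb, Fos, Egr1, Hlf, Slc18a2 and Emb.

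Cd74 and H2-Eb1 were among the 12 highest candidates over control in both libraries with Ikk2-CA. Cd74, which encodes the invariant chain of MHC class II, was at 19.9 CPM in control, 185 CPM in Ikk2-CA, 37.0 CPM in Jak2 V617F and 132 CPM in the double mutant. Unthinned, 16.8%, 66.2%, 22.2% and 62.3% of gated cells had a UMI of it. H2-Eb1, a class II chain, was at 16.0, 122, 40.6 and 67.3 CPM, and was 2.54 times control (2.13 to 3.05) in Jak2 V617F also. Ehd3, a membrane trafficking gene, was at 13.6, 93.8, 12.4 and 48.3 CPM. Beside these values, the 9 B-cell genes summed to 44.0, 51.9, 31.5 and 32.2 CPM. Most of that sum was Cd79b, and Cd79a was absent by rule, so the sum says little about B cells. Ly6d, listed as a gene of plasmacytoid dendritic cells, had a UMI in 1.41%, 15.4%, 0.414% and 2.04% of gated cells. Which cells gave the class II UMIs was not tested.

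Hlf was lower in both libraries with Ikk2-CA, and the other measured stem cell genes were not called in either comparison with control. It was 0.269 of control (0.245 to 0.294) in Ikk2-CA and 0.354 (0.328 to 0.382) in the double mutant, against 0.838 in Jak2 V617F. Outside the gate Hlf had the same 2 libraries lowest. Of 7 measured stem cell genes Hlf was the single one called in either comparison, and the medians were -0.34 and -0.38 against -0.17 and -0.20 for all genes. Over all genes 1.11% and 1.38% were called lower. The list has 16 genes, and several under the 20 CPM minimum were also low in Ikk2-CA over control. The log2 ratio was -2.44 for Fgd5, -2.04 for Emcn, -1.77 for Robo4, -1.57 for Procr and -1.35 for Sult1a1. It was -0.17 for Slamf1 and 0.07 for Tcf15. The fall was thus not particular to Hlf. Flt3, a cytokine receptor of multipotent progenitors, was at 43.1, 11.5, 29.0 and 13.5 CPM, and Dntt, a lymphoid polymerase gene, at 65.3, 23.9, 30.5 and 17.0 CPM. Of 5 measured lymphoid-priming genes 2 were called lower and 1 higher in Ikk2-CA, 1 lower in Jak2 V617F and 4 lower in the double mutant. Over all genes 1.11%, 0.193% and 1.38% were called lower in these comparisons, and 1.43% higher in Ikk2-CA. All 5 passed the 20 CPM minimum in control. Of those called lower, 1 also passed it in Ikk2-CA, 1 in Jak2 V617F and 0 in the double mutant. The double-mutant count thus rests on the filter. The one called higher was Ighm, at 31.7, 80.8, 17.0 and 12.1 CPM, of which 1 Ikk2-CA cell held 17.1%. Cd34, which was not part of the sort as named, was at 255, 102, 178 and 137 CPM. The sorted proteins' genes also differed, with Kit at 167, 111, 184 and 91.1 CPM, and Ly6a, which encodes Sca-1, at 45.7, 99.7, 82.6 and 123 CPM. Sca-1 and Kit were used to sort the cells, so their levels are descriptions.

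Growth-related genes differed by less. All 15 ribosome biogenesis genes were higher in the double mutant than in control, with a median of 0.34 against -0.20 for all genes, and 0 passed 2-fold. In Jak2 V617F all 15 were also above control, with a median of 0.17 against -0.03 for all genes. Over all genes 1901 of 6165 were above control in the double mutant and 2769 of 6229 in Jak2 V617F. The median was above 0 in each comparison with control under each alternative run. Npm1, a nucleolar chaperone gene, was at 2170, 1970, 2349 and 2566 CPM, with Ikk2-CA below control. Of the cell cycle genes, 0 of 18 in S phase were called in any comparison with control, and of 24 in G2 and M phase 1 was called lower in Ikk2-CA and 1 in the double mutant. In each case the gene passed the 20 CPM minimum in control only. Over all genes 1.11% and 1.38% were called lower in these comparisons. Mki67, a marker of cycling cells, was at 283, 284, 295 and 237 CPM.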

How the data were processed

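RNA of LSK cells was counted per droplet in 4 libraries, 1 per genotype. The deposited values are raw UMI counts for 32285 genes, made with Cell Ranger on mm10. The file headers give version 4.0.0 and the design text 3.0.1, and the submitters' processing notes name Seurat 4.0.0. From 41674 deposited barcodes 37344 were kept. Counts of gated cells were summed per library and given as CPM, with exact 95% Poisson or binomial intervals, and ratios with exact conditional binomial ones. PCR and sampling of mice are not covered. Genes with at least 20 CPM in either sum were compared, and TMM (edgeR 4.0.16) and median-of-ratios (DESeq2 1.42.0) factors were used as scalings only, with no count model fitted. Early B cells were used as cells that should lack the genes. Scrublet called 0, 235, 0 and 3 barcodes as doublets and so had not worked in 3 libraries, and no doublets were removed. Named genes were, among candidates of at least 50 CPM, the 12 highest and 12 lowest ratios of each mutant over control, the 6 highest and lowest of the double mutant over each single mutant, the 15 leading genes of the gate, and, with no such minimum, all megakaryocyte, early megakaryocyte-erythroid and sort genes, and up to 4 genes of at least 20 CPM of each other list; a few more list members were named after their values were seen. Mitochondrial, ribosomal protein, unnamed, antigen receptor, sex-linked and gate genes were not ranked. The ratio calculation was tested on simulated data. The members, lists and alternatives were chosen with earlier results of these data known. Python 3.11.15, scanpy 1.11.5, scipy 1.17.1 and R 4.3.3 were used. One gene of the receptor list is not reported here.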

Additional observations from a re-analysis of the deposited data

Results flagged for a closer look

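For several genes the log2 effect of one allele had opposite signs with and without the other allele, at 2-fold or more each way. The values are the effect with the other allele minus the effect without it, which is the same number for both alleles. These differences were not tested, since each genotype had 1 library. The immediate early genes gave -6.30 for Nr4a1, -5.02 for Fos, -4.87 for Nr4a2, -4.27 for Klf2, -4.08 for Egr1 and -4.04 for Fosb, for both alleles. For Fos, Ikk2-CA went with 3.32 without Jak2 V617F and -1.71 with it. For the effect of Ikk2-CA, the chemokine gene Ccl4 gave -2.76. For the effect of Jak2 V617F, Zfp36 gave -3.36, the histone gene Hist1h2ap -3.74 and the activation marker Cd69 -2.34. The pseudogene Nutf2-ps1 gave 2.18 for both alleles, and its counts may be shared with its parent gene.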

How the results depend on the processing

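The 5 comparisons are listed in the order Ikk2-CA, Jak2 V617F and double mutant over control, then double mutant over Ikk2-CA and over Jak2 V617F. Pf4 kept its direction in each comparison under each alternative that gave it a value. Apoe changed direction in Jak2 V617F over control when thinned and in the double mutant over Ikk2-CA with all 3 markers, and the cause was not tested. The values that left the counting error or 1.5 times the main count follow. With TMM factors, the Pf4 log2 ratio was 2.17, -0.71, 1.51, -0.66 and 2.22 in the 5 comparisons, and that of Apoe -0.21, -0.11, -0.41, -0.21 and -0.30 in the 5 comparisons. Higher genes numbered 137 and 112 (Ikk2-CA/control and double/control). Lower genes numbered 30, 17 and 11 (Ikk2-CA/control, double/control and double/Jak2 V617F). With all 3 markers required, the share of cells was 2.12%, 3.24%, 2.03% and 6.15% in library order. The Pf4 log2 ratio was 1.35, -0.93, 0.64 and 1.57 (Ikk2-CA/control, Jak2 V617F/control, double/control and double/Jak2 V617F), and that of Apoe -0.67, -0.10, 0.0075 and -0.57 (Ikk2-CA/control, Jak2 V617F/control, double/Ikk2-CA and double/Jak2 V617F). Lower genes numbered 20 (Jak2 V617F/control). Over all deposited barcodes, the Pf4 log2 ratio was 1.17, -0.75 and 1.97 (double/control, double/Ikk2-CA and double/Jak2 V617F), and that of Apoe -0.51, -0.22, -0.79 and -0.57 (Ikk2-CA/control, Jak2 V617F/control, double/control and double/Jak2 V617F). In gated cells with a Gata1 UMI, the Pf4 log2 ratio was 1.30, -1.24, 0.78 and -0.52 (Ikk2-CA/control, Jak2 V617F/control, double/control and double/Ikk2-CA), and that of Apoe -0.54, -0.13, -0.65 and -0.11 (Ikk2-CA/control, Jak2 V617F/control, double/control and double/Ikk2-CA). Among genes at 100 CPM or more, higher genes numbered 41, 5, 22, 1 and 17 in the 5 comparisons. Lower genes numbered 9, 3, 5, 18 and 6 in the 5 comparisons. With the early B-cell level subtracted, the Apoe log2 ratio was -0.65 (double/control). As means over cells, the Pf4 log2 ratio was 2.08, -0.61, 1.48, -0.60 and 2.10 in the 5 comparisons, and that of Apoe -0.31, -0.0045, -0.60 and -0.60 (Ikk2-CA/control, Jak2 V617F/control, double/control and double/Jak2 V617F). With median-of-ratios factors, the Pf4 log2 ratio was 2.17, 1.53, -0.64 and 2.27 (Ikk2-CA/control, double/control, double/Ikk2-CA and double/Jak2 V617F), and that of Apoe -0.20, -0.39, -0.19 and -0.25 (Ikk2-CA/control, double/control, double/Ikk2-CA and double/Jak2 V617F). Higher genes numbered 141, 119 and 69 (Ikk2-CA/control, double/control and double/Jak2 V617F). Lower genes numbered 29, 16 and 10 (Ikk2-CA/control, double/control and double/Jak2 V617F). In cells with 0 Xist UMIs, the share of cells was 5.99% and 16% (control and double mutant). The Pf4 log2 ratio was 1.56, -1.21, 0.93, -0.62 and 2.15 in the 5 comparisons, and that of Apoe -0.39, -0.093, -0.53, -0.14 and -0.43 in the 5 comparisons. Lower genes numbered 63 (double/Jak2 V617F). With no filter on low genes, higher genes numbered 745, 550, 439, 1283 and 1311 in the 5 comparisons. Lower genes numbered 2562, 2551, 3352, 2063 and 2176 in the 5 comparisons. Without the limits on Car1, Elane and Cd79a, the share of cells was 9.68% (Ikk2-CA). The Pf4 log2 ratio was -0.66, 1.36 and -0.59 (Jak2 V617F/control, double/control and double/Ikk2-CA). Thinned to 5000 UMIs before the gate, the share of cells was 2.81%, 2.81%, 2.96% and 2.73% in library order. The Pf4 log2 ratio was 1.76, -0.69, 1.30 and -0.46 (Ikk2-CA/control, Jak2 V617F/control, double/control and double/Ikk2-CA), and that of Apoe 0.12, -0.47, -0.066 and -0.60 (Jak2 V617F/control, double/control, double/Ikk2-CA and double/Jak2 V617F). Higher genes numbered 86, 111, 73 and 65 (Jak2 V617F/control, double/control, double/Ikk2-CA and double/Jak2 V617F). Lower genes numbered 316, 51, 537, 184 and 467 in the 5 comparisons. Without the highest Scrublet scores, the share of cells was 8.04% (Jak2 V617F). The Pf4 log2 ratio was 1.90, -0.65, 1.15, -0.75 and 1.80 in the 5 comparisons, and that of Apoe -0.085 and -0.61 (Jak2 V617F/control and double/Jak2 V617F). The log2 ratio of Ms4a3 in Ikk2-CA over control was 1.01 and became -0.042 without the limits. The alternatives by Gata1 UMI and by early B-cell level were chosen after seeing the data. No paired analysis was possible because each genotype gave 1 library and the result comes from no test, and for the same reason leaving out a replicate was not possible.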
